A study of Mus musculus with 42 samples.

Results

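Tcf7, Ccr7, S1pr1, Il7r, Klf2, Bach2, Satb1 and Foxo1 are genes of resting T cells and of T cell traffic through lymphoid organs. These 8 genes were taken by symbol from a count table of 55011 genes, and all 8 were found. They were read in mouse regulatory T (Treg) cells of epididymal visceral adipose tissue (eVAT), 3 libraries of the genotype OSM+/+ (wild type, WT) and 3 of OSMf/f (titled KO). They were also read in the stromal and adipocyte libraries that make up the rest of the study's 42 libraries and 15 groups. The driver that would delete the floxed oncostatin M (OSM) allele, and the age and sex of the mice, are not given in the labels.

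The stromal cells were populations named VmSC4 and VmSC5, sorted from visceral adipose tissue (VAT) of Pparg-Tdt reporter mice and sequenced fresh (3 libraries each) or after 8 days of adipogenic culture (3 each). Transferred cells had been placed in Kaeda recipient mice and sorted again as VmSC4-derived VmSC4 (3 libraries), VmSC4-derived VmSC5 (3) or VmSC5-derived VmSC5 (2). Floating VAT cells, labelled as adipocytes, came from Pparg-Tdt mice carrying Foxp3-DTR or not (DTR+ and DTR-, 2 libraries each). Both of these groups received diphtheria toxin, which kills Foxp3+ Treg cells in DTR+ mice. VmSC5 in adipogenic medium were further cultured without or with Treg (3 libraries each; the titles say Treg, the design text says their conditioned medium) and with PBS or OSM at 10 ng/mL (3 each). Which libraries came from separate animals or wells is not given, and the p-values therefore measure only the spread between these libraries, which may be technical.

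Resting and central T cells circulate between blood and lymphoid organs, and most effector T cells of tissues give up that programme. CCR7 is the chemokine receptor that guides T cells into lymph nodes, S1PR1 is the sphingosine 1-phosphate (S1P) receptor that lets them leave, and IL-7R is the interleukin-7 receptor alpha chain that keeps resting T cells alive. FOXO1 is a transcription factor that activates Il7r, Ccr7 and Klf2, and KLF2 in turn activates S1pr1. TCF-1, the product of Tcf7, BACH2 and SATB1 are nuclear factors of naive and stem-like T cells, where BACH2 represses effector genes and SATB1 organises chromatin. S1PR1 and KLF2 are also well known in vascular endothelium, and FOXO1 in many tissues including adipocytes.

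All 8 genes were transcribed in the VAT Treg cells, and 3 of them, Tcf7, Ccr7 and Il7r, were near or at 0 counts in the stromal and floating cells. S1pr1, Klf2, Bach2, Satb1 and Foxo1 had counts in every fresh stromal library as well as in every Treg library. The 250 bases before the RefSeq start of 1 gene of each kind are shown because they differ in CG dinucleotides, which are in capitals. The Il7r stretch lies at chr15:9529877-9530126 on the minus strand and the Klf2 stretch at chr8:72318812-72319061 on the plus strand (RefSeq, GRCm38.p6).
Il7r: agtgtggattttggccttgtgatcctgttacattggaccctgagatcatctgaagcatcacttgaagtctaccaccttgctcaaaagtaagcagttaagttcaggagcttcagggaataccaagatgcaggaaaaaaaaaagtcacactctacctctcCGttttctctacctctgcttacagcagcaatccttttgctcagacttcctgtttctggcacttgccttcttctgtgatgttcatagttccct
Klf2: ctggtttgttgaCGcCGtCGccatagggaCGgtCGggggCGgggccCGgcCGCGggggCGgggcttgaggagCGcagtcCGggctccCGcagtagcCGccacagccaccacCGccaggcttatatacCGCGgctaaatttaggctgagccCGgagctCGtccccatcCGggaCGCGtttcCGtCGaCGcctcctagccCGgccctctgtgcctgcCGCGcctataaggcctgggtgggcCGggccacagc
The Il7r stretch held 1 CG and the Klf2 stretch 29, against a median of 6.0 over 32851 starts of 27025 genes. Fewer CG were counted in 7.87% of all starts than before Il7r, and in 93.2% than before Klf2. Starts were given for 6 of the 8 genes, 11 in all. Tcf7 had 37 and 15 CG before its 2 starts, Foxo1 20 and Bach2 7, while the 5 starts of Satb1 had from 3 to 41. The number of CG thus did not separate the kinds of gene. Neither Ccr7 nor S1pr1 had an entry.

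Short motifs were searched on both strands of these 11 stretches, and a base could belong to more than 1 match. The STAT motif TTCNNNGAA matched once before Il7r and once before Bach2, and 7.02% of all starts held it. The TCF/LEF motif CTTTGA matched once before Bach2 (13.8% of all starts). The KLF motif CCACCC matched once before Klf2, once before 1 start of Tcf7 and once before 3 starts of Satb1 (28.1% of all starts). GTAAACA, the FOXO motif, matched none of the 11 (3.17% of all starts). A match describes letters only.

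Totals of counted reads per library lay between 1507163 and 4438234 in the Treg cells, where KO replicate 2 was the shallowest library and had the fewest detected genes (16756, against 21202 to 24287 in the other 5). Other totals were 8527769 or more in fresh stromal cells, 1841664 to 2606360 in the adipogenic cultures, 1967123 to 5044946 after transfer, 5932453 to 7490677 in floating cells, 4648878 to 7933682 in the cultures with or without Treg, and 1072147 to 2078534 in those with PBS or OSM. Levels are CPM, a gene's count scaled to the library's total, and, where genes are compared with each other, CPM per kb of exon. Osm was read at 29.1, 28.4 and 34.1 CPM in WT Treg and at 9.83, 14.6 and 7.76 CPM in KO Treg. Its log2 fold change was -1.51 ± 0.35 (SE) with an edgeR adjusted p of 0.271, and all 3 KO libraries lay below all WT libraries. Foxp3, the factor that defines Treg cells, was at 315, 332 and 294 CPM in WT and at 154, 359 and 316 CPM in KO, so KO replicate 1 stood apart from the other 5. All 7 T cell markers examined had counts in both Treg groups, with a summed level of 4709 to 5469 CPM per library. In each of the 13 other groups the same 7 markers summed to at most 4.95 CPM.

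Per kb of exon, the receptors and Tcf7 were the most abundant of the 8 genes in Treg cells, and Satb1 and Bach2 the least. The 3 receptors come first. S1pr1 (chromosome 3, 115710433 to 115715072, minus strand) was at 148 ± 24.9 CPM per kb over the 6 Treg libraries (SD, n = 6), Il7r (chromosome 15, 9505788 to 9530176, minus strand) at 107 ± 15.6 and Ccr7 (chromosome 11, 99144196 to 99155077, minus strand) at 69.9 ± 21.5. Neighbours in that order had overlapping libraries.

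Of the nuclear factors, Tcf7 (chromosome 11, 52252371 to 52283014, minus strand) was at 56.4 ± 6.49 CPM per kb, and its libraries overlapped those of Ccr7. Klf2 (chromosome 8, 72319033 to 72321656, plus strand) followed at 15.5 ± 9.49 CPM per kb and Foxo1 (chromosome 3, 52268336 to 52353221, plus strand) at 6.40 ± 1.06. Satb1 (chromosome 17, 51736187 to 51833290, minus strand) was at 1.78 ± 0.528 and Bach2 (chromosome 4, 32238804 to 32586108, plus strand) at 1.38 ± 0.343 CPM per kb. Tcf7, Klf2, Foxo1 and Satb1 formed steps with no overlap between one gene's 6 libraries and the next, whereas Satb1 and Bach2 overlapped. Positions are those of GENCODE M21 on GRCm38, and exon lengths are the union of all annotated exons, so genes with long untranslated exons such as Satb1 are lowered on this scale. Bach2 overlaps the annotated Bach2os and Bach2it1, and the strand setting of the counting is not given in the sources used here, which leaves its counts uncertain. Those genes had 13 and 5 counts over the 6 Treg libraries, against 290 for Bach2.

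**Figure D1:**
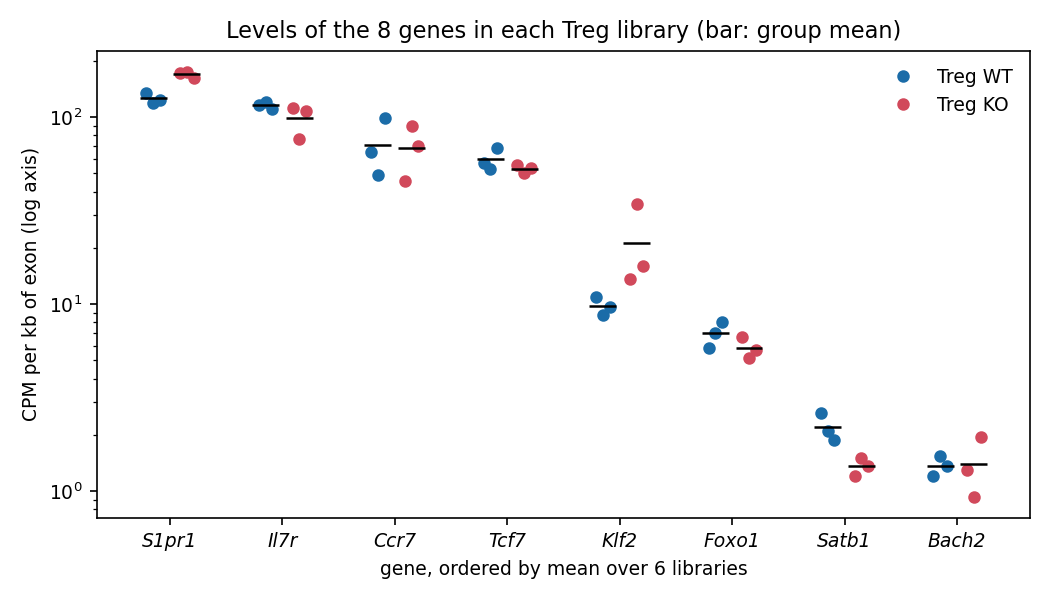
Level of each gene in CPM per kb of exon (log axis) in the 3 WT and 3 KO Treg libraries, with a bar at each group mean. S1pr1 is highest at 148 CPM per kb over the 6 libraries and Bach2 lowest at 1.38, and the KO libraries lie above WT for S1pr1 and Klf2 and below WT for Satb1.

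The first question was whether these genes differ between KO and WT Treg cells. None of the 8 was called at an edgeR adjusted p under 0.05, and 0.0526% of all genes tested were called (6 of 11416). At an unadjusted p under 0.05, edgeR gave 1158 genes, among them S1pr1, Klf2 and Satb1, and DESeq2 called 50 genes but none of the 8. These were also the 3 genes whose KO and WT libraries did not overlap, 37.5% of the 8, against 16.0% of all genes tested.

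S1pr1 was at 409, 363 and 378 CPM in WT and at 528, 531 and 491 CPM in KO Treg cells. Every KO library was above every WT library, and the spread within each group was small. The log2 fold change was 0.47 ± 0.13 (SE; 95% interval 0.21 to 0.73), with an edgeR adjusted p of 0.347.

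Klf2 was at 20.3, 16.2 and 17.9 CPM in WT and at 25.2, 63.0 and 29.6 CPM in KO Treg cells. All 3 KO libraries were above WT, and the highest by far was KO replicate 2, the shallowest library, with 95 counts. Its log2 fold change was 1.13 ± 0.37 (interval 0.39 to 1.86; edgeR adjusted p = 0.372), and without KO replicate 2 it was 0.60 (adjusted p = 0.571). Without KO replicate 1, the library with low Foxp3, both Klf2 (log2 fold change 1.39, edgeR adjusted p = 0.029) and S1pr1 (0.48, adjusted p = 0.0454) were called, and the number of genes called rose from 6 to 586.

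Satb1 went the other way, at 49.8, 40.1 and 35.6 CPM in WT and 23.0, 28.5 and 26.0 CPM in KO Treg cells. All KO libraries were below all WT libraries. The log2 fold change was -0.67 ± 0.26 (interval -1.18 to -0.15; edgeR adjusted p = 0.418).

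The libraries of the other 5 genes overlapped between genotypes. Il7r was at 541, 559 and 518 CPM in WT and at 524, 358 and 502 CPM in KO, with KO replicate 2 the lowest (log2 fold change -0.19 ± 0.15, edgeR adjusted p = 0.729). Ccr7 varied widely within each genotype, at 129, 97.3 and 197 CPM in WT and 90.4, 178 and 139 CPM in KO (-0.02 ± 0.30, adjusted p = 0.989). Its direction in KO turned when WT replicate 3 (0.30) or KO replicate 1 (0.22) was left out.

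Tcf7 was steadier, at 150, 139 and 181 CPM in WT and 146, 133 and 140 CPM in KO (log2 fold change -0.13 ± 0.17, interval -0.46 to 0.20). Foxo1 was at 50.7, 60.8 and 69.7 CPM in WT and 58.0, 44.5 and 49.3 CPM in KO (-0.21 ± 0.22, interval -0.65 to 0.23). Bach2 rested on the fewest counts, 53, 51 and 53 in WT and 54, 14 and 65 in KO, and its interval was the widest (0.09 ± 0.38, interval -0.66 to 0.84). For these 5 genes no difference was detectable with 3 libraries a group, and the intervals show the sizes that the data allow.

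**Figure D2:**
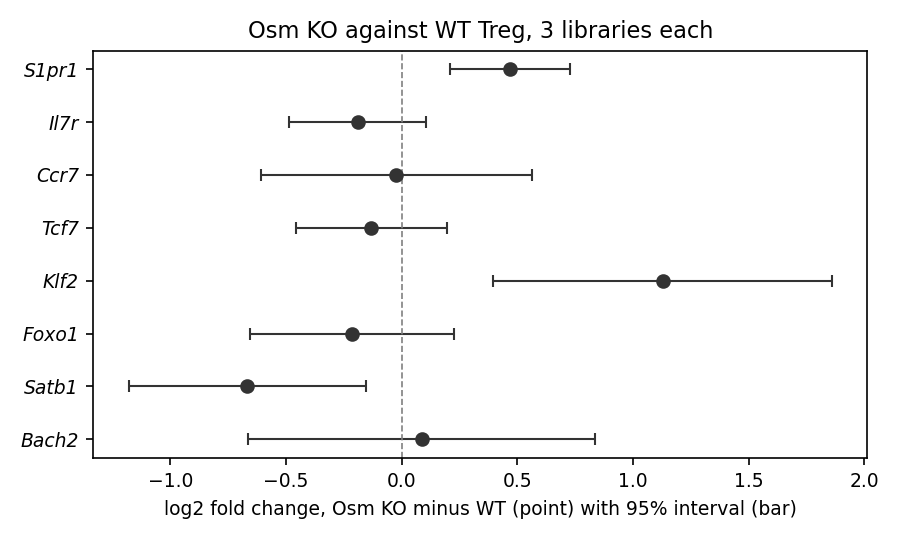
Log2 fold change of each gene in KO against WT Treg cells (point) with its 95% interval (bar), from 3 libraries a group. The intervals of S1pr1 (0.21 to 0.73), Klf2 (0.39 to 1.86) and Satb1 (-1.18 to -0.15) leave out 0 before adjustment over all genes, and none passed after it.

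Wider lists were read beside the 8 genes, and no gene of them was called in KO against WT. Among 16 further resting and recirculation genes, 15 were tested and their median log2 fold change was 0.13, against 0.01 over all genes. The most abundant of them were Ets1, a T cell transcription factor (2990 ± 133 CPM in WT and 3065 ± 1280 in KO; SD, n = 3), the co-stimulatory receptor Cd27 (389 ± 14.0 and 355 ± 46.9), the S1P receptor S1pr4 (345 ± 18.4 and 342 ± 75.5) and the adhesion receptor Slamf6 (204 ± 16.0 and 179 ± 55.8).

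All 20 genes of a tissue effector and retention list were tested, with a median of -0.08. Gata3, a factor of type 2 and tissue Treg cells, was at 1775 ± 165 CPM in WT and 1796 ± 430 in KO (SD, n = 3). The inhibitory receptor Klrg1 was at 859 ± 41.2 and 799 ± 76.8 CPM, and the chemokine receptor Ccr2 at 680 ± 31.9 and 680 ± 148. Cd69, whose product pulls S1PR1 off the cell surface, was at 853 ± 11.5 and 779 ± 289 CPM. Per kb of exon over the 6 libraries, Klrg1 (587) and Gata3 (449) were above S1pr1 (148), and Cd69 (125) and Ccr2 (101) were below it. The resting genes were thus read in the same libraries as abundant effector genes, and bulk libraries do not show whether 1 cell holds both.

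Of 22 genes for ligands, signalling partners and turnover of the 3 receptors, 21 were in the table and 10 were tested, with a median of 0.02. Il2rg, the common gamma chain that pairs with IL-7R, was at 816 ± 23.2 CPM in WT and 856 ± 72.3 in KO. Its kinase Jak3 was at 364 ± 29.6 and 394 ± 141 CPM, and Jak1, the kinase bound to IL-7R, at 1151 ± 16.6 and 983 ± 115. Grk2, a kinase that desensitises S1PR1, was at 207 ± 4.08 and 162 ± 16.6 CPM. The CCR7 ligand genes Ccl19 and Ccl21a had 0 counts in all 6 Treg libraries. Markers of other lymphoid cells had counts in these libraries: 4 B cell markers summed to 21.2 to 35.8 CPM in WT and 20.9 to 41.1 CPM in KO, and 5 cytotoxic T and NK markers to 138 to 213 and 193 to 202 CPM. Of those 5, Cd8a and Klrb1c had 0 counts in KO, so that sum does not by itself show cytotoxic T or NK cells. Macrophage markers summed to 1.79 to 9.46 CPM in WT and 4.18 to 38.8 CPM in KO, the list mean being 6.84 and 17.0 CPM. Dendritic cell markers summed to 13.7 to 21.5 CPM in WT and 15.9 to 26.6 CPM in KO. Their part in the levels of Ccr7, Tcf7, S1pr1 and Klf2 was not tested. Of 6 endothelial markers, Pecam1 was at 96.7 to 147 CPM, whereas the defining markers Cdh5, Kdr and Tie1 were each at 0 to 2.40 CPM in the 6 Treg libraries.

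The next comparison set WT Treg against the 6 fresh stromal libraries, to show which of the 8 genes mark the T cells in this tissue. Treg and stromal libraries were separate experiments, so cell type and experiment cannot be told apart. In bulk samples, fewer cells of a type and less RNA per cell likewise cannot be told apart. Of all genes tested, 72.9% were called (11374 of 15592), and the fitted values are centred 0.53 below plain CPM ratios, so changes are read against a median of -0.04.

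Il7r had 6289 counts in WT Treg and 0 counts in all 6 fresh stromal libraries, where 3 counts would be 0.0476 CPM. Its level was at least 11310.1-fold higher in Treg. Tcf7 had 1836 counts against 7, a 1415-fold difference in pooled CPM (95% counting interval 685 to 3525), and Ccr7 had 1663 against 4 (2243-fold, 874 to 8242). Those intervals cover counting error only, and these 3 genes entered the test only through the Treg libraries, so they had to differ. T cell markers in the fresh stromal cells summed to 0.850 to 2.83 CPM.

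S1pr1 had counts in all 6 fresh stromal libraries, from 1.54 to 19.3 CPM, and was 5.44 ± 0.16 higher on the log2 scale in WT Treg (edgeR adjusted p = 8.93e-15). Satb1 was at 35.6 to 49.8 CPM in WT Treg and 3.92 to 9.85 CPM in stromal cells (2.28 ± 0.24, adjusted p = 2.08e-07). Bach2 was at 11.9 to 15.3 and 1.52 to 3.42 CPM (2.09 ± 0.31, adjusted p = 1.25e-05). Each of these 3 genes was higher in every WT Treg library than in every stromal one. How many of all genes are separated in this way was not counted here, so that separation is given as a description.

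Klf2 and Foxo1 were not called. Klf2 was at 16.2 to 20.3 CPM in WT Treg and at 7.45 to 12.8 CPM in stromal cells (log2 fold change 0.37 ± 0.24, interval -0.10 to 0.85, edgeR adjusted p = 0.174), with no overlap of the libraries in CPM. Foxo1 overlapped, at 50.7 to 69.7 and 25.6 to 55.4 CPM (0.20 ± 0.20, interval -0.19 to 0.60, adjusted p = 0.368). Per kb, the order within fresh stromal cells was Klf2 (5.26 ± 1.16), Foxo1 (4.19 ± 1.21), S1pr1 (2.99 ± 2.52), Satb1 (0.317 ± 0.109) and Bach2 (0.222 ± 0.0671), with every neighbouring pair overlapping (SD, n = 6).

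Across all 15 groups the genes fell into different patterns. The Treg groups were the highest for Il7r, Tcf7 and Ccr7, with no overlap with any other group. Outside Treg, Il7r reached at most 0.622 CPM (OSM cultures, 2 counts), Tcf7 1.19 CPM (OSM cultures, 5 counts) and Ccr7 1.46 CPM (OSM cultures, 6 counts), and the order among those groups rests on a few counts each.

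S1pr1 was highest in KO Treg (517 ± 22.5 CPM), then in WT Treg (383 ± 23.5), the OSM cultures (58.8 ± 9.64, n = 3), DTR- floating cells (52.6 ± 1.87, n = 2) and fresh VmSC4 (15.9 ± 2.93). Of these neighbours only the OSM cultures and DTR- floating cells overlapped. The remaining 10 groups, from 6.69 down to 1.03 CPM, each overlapped the next in the order. Satb1 had Treg WT (41.8 ± 7.25) and KO (25.8 ± 2.76) above the rest, from 8.80 CPM in VmSC5-derived VmSC5 to 0.822 in adipogenic VmSC4, again with every neighbour overlapping.

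Klf2 did not have its 2 highest groups in Treg: KO Treg (39.3 ± 20.7 CPM) was followed by VmSC5-derived VmSC5 (34.3 ± 3.52, n = 2), which it overlapped, and then by WT Treg (18.1 ± 2.06) and both VmSC4-derived groups (17.3 ± 1.17 and 15.1 ± 1.196). All 6 groups of cells cultured in adipogenic medium were below 1 CPM on average. Bach2 was highest in Treg (13.9 ± 5.12 in KO, 13.6 ± 1.66 in WT; KO replicate 2 lay below the highest transferred library), then in the 3 transferred groups (7.76 ± 2.30, 6.27 ± 2.18 and 4.42 ± 0.580), and both fresh groups came next (2.62 ± 0.740 and 1.80 ± 0.238). Foxo1 had the narrowest range, from 60.4 ± 9.51 CPM in WT Treg to 12.7 ± 2.82 in OSM cultures, and only VmSC4-derived VmSC5 and adipogenic VmSC4 did not overlap among its neighbours.

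**Figure D3:**
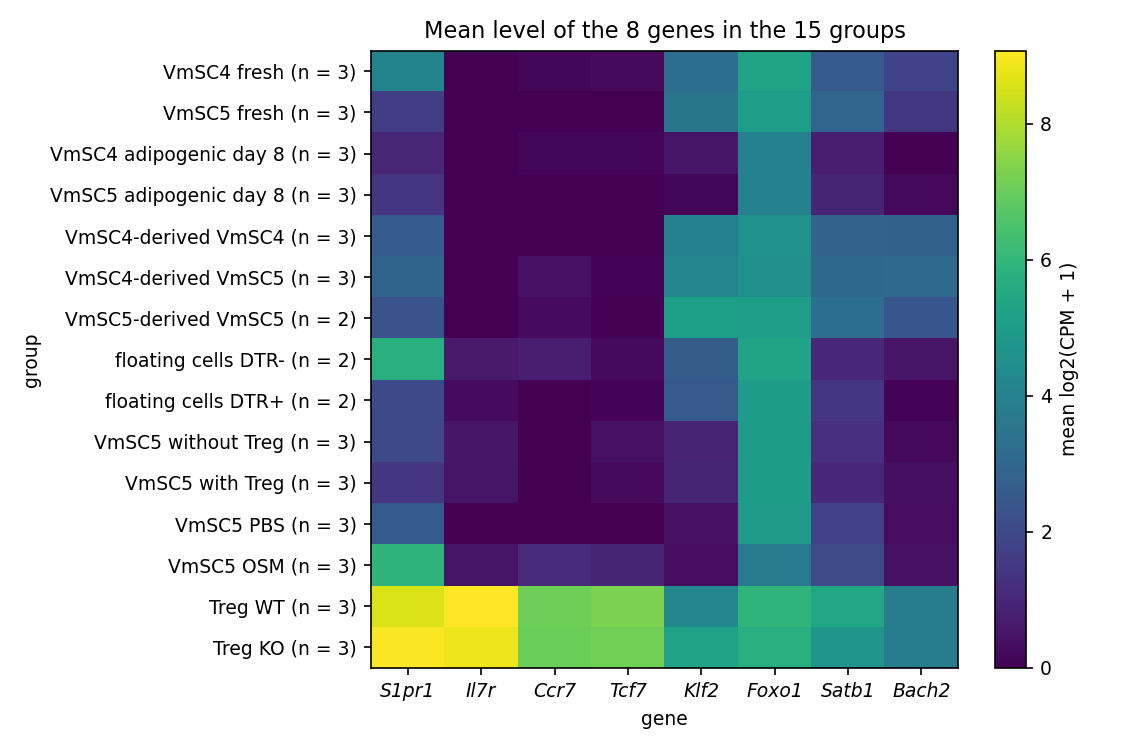
Mean log2(CPM + 1) of the 8 genes (columns) in the 15 groups (rows), with the number of libraries in each row label. Il7r, Ccr7 and Tcf7 are bright in both Treg rows and dark elsewhere, Foxo1 is present in every row, and S1pr1 stands out in the OSM cultures (58.8 CPM) and in DTR- floating cells (52.6 CPM) beside Treg.

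Genes with the most similar pattern were sought over the 15 group means of log2(CPM + 1), among 10272 genes that reached 20 CPM in a group. Pearson's r is given as a description, since the groups differ in depth and preparation and 2 Treg groups can set a high r. Il7r was closest to Samsn1 (r = 0.999), Rhoh (0.999) and Cd226 (0.998), and among those closest to Tcf7 were Samsn1 (0.998) and Gpr83 (0.997). Ccr7 was closest to Gimap8, S1pr4 and Fcho1 (0.998, 0.997 and 0.997). S1pr1 was closest to Tnfaip8l1 (0.954), Ggta1 (0.948) and Pde4b (0.944), and Klf2 to Hspa1a (0.958), Fosb (0.940) and Dlgap4 (0.934). Bach2 followed Adcy7, Nr4a3 and Iqgap2 (0.977, 0.976 and 0.963), Satb1 Tmem91, Nfkb1 and Lmbr1l (0.971, 0.970 and 0.967), and Foxo1 Vps11, Tob2 and Sec22c (0.941, 0.926 and 0.920).

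Among fresh stromal cells, S1pr1 separated VmSC4 from VmSC5. It was at 19.3, 14.6 and 13.9 CPM in VmSC4 and at 1.54, 3.30 and 2.11 CPM in VmSC5. No VmSC5 library came near the lowest VmSC4 library. The log2 fold change of VmSC5 against VmSC4 was -2.68 ± 0.37 (edgeR adjusted p = 1.37e-05), and 18.4% of all genes tested were called (2566 of 13947). Endothelial markers summed to 6.44 to 8.39 CPM in VmSC4 and 3.28 to 5.63 CPM in VmSC5, with counts for all 6 markers in both. Of these, Pecam1 was at 3.68, 2.95 and 4.11 CPM in VmSC4 and at 0.412, 0.532 and 0.938 CPM in VmSC5. The libraries of Cdh5, Kdr, Tie1, Egfl7 and Cldn5 overlapped between the populations. T cell markers summed to 2.06 to 2.83 and 0.850 to 1.54 CPM, and the part of either cell type was not tested.

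Klf2 (0.35 ± 0.22), Satb1 (0.56 ± 0.33), Bach2 (-0.45 ± 0.39) and Foxo1 (-0.16 ± 0.20) were not called between fresh VmSC5 and VmSC4, with edgeR adjusted p from 0.267 to 0.625. Bach2 libraries did not overlap, at 1.97 to 3.42 CPM in VmSC4 and 1.52 to 1.957 CPM in VmSC5. Foxo1 changed sign when VmSC4 replicate 2 (0.15) or VmSC5 replicate 2 (0.01) was left out. Tcf7, Ccr7 and Il7r did not pass the count filter. Of 11 tested resting and recirculation genes, Il6ra was called higher in VmSC5 (0.86 ± 0.18) and none lower. Of 6 tested effector genes, 1 was higher and 3 were lower in VmSC5, with a median of -1.22. Of 18 tested genes of the ligand, partner and turnover list, 4 were lower in VmSC5 and none was higher, with a median of 0.12 against -0.02 over all genes. These were the S1P receptor S1pr3 (-0.53 ± 0.11, adjusted p = 0.00139), the S1P-making kinase Sphk1 (-0.58 ± 0.14, adjusted p = 0.00436), the lipid phosphatase Plpp1 (-0.38 ± 0.12) and Ackr4, the scavenger of CCR7 ligands (-0.92 ± 0.28).

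After 8 days of adipogenic culture, Foxo1, the 1 gene of the 8 with 25 or more counts in every fresh and cultured library, was lower in both populations. Klf2, Bach2 and Satb1 in both populations, and S1pr1 in VmSC4, had 0 to 4 counts in each cultured library. They entered the test through the fresh libraries, where they are high, so their calls (5 of 5 genes tested in VmSC4 and 4 of 5 in VmSC5, Foxo1 included) are given as values and not as support. Of all genes tested, 70.4% were called in VmSC4 (9307 of 13221) and 71.0% in VmSC5 (9389), so a call is common. The fitted values are centred 0.51 above plain CPM ratios in VmSC4 and 0.39 above them in VmSC5, and the medians of all genes were -0.23 and -0.18. Preparation and depth differed between sorted fresh cells and lysed wells and cannot be told apart from culture. The fresh groups here are those of the preceding comparison.

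Klf2 fell from 7.83, 11.3 and 7.45 CPM in fresh VmSC4 to 0.543, 0.384 and 0.466 CPM, a single count in each cultured library. The pooled ratio was 19.3-fold (95% counting interval 6.55 to 94.2; edgeR adjusted p = 4.62e-06). In VmSC5 it fell from 10.6, 8.40 and 12.8 CPM to 0.430, 0 and 0 CPM (68.6-fold, interval 12.2 to 2720.45; adjusted p = 1.35e-07). Fresh and cultured libraries were far apart in both populations.

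Bach2 had 93 counts in fresh VmSC4 and 0 in the 3 cultured libraries, 5.78-fold lower against a floor of 3 counts (edgeR adjusted p = 0.000889). In VmSC5 it had 50 counts fresh and 1 cultured (11.8-fold, interval 2.02 to 475; adjusted p = 0.0174). The VmSC5 call was lost without cultured replicate 1 (adjusted p = 0.08) or 2 (0.0806). Satb1 went from 3.92 to 6.08 CPM down to 0 to 1.53 CPM in VmSC4 (log2 fold change of -1.93 ± 0.62, adjusted p = 0.00761) and from 4.78 to 9.85 down to 0.430 to 1.60 CPM in VmSC5 (-2.48 ± 0.60, adjusted p = 0.000753).

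Foxo1 fell less, from 28.9, 55.4 and 34.1 CPM to 19.0, 9.59 and 17.2 CPM in VmSC4 (-0.85 ± 0.27 on the log2 scale, edgeR adjusted p = 0.00677) and from 38.9, 25.6 and 34.8 to 16.3, 14.6 and 13.9 CPM in VmSC5 (-0.72 ± 0.27, adjusted p = 0.0208). All cultured libraries lay below all fresh ones. The call was lost in VmSC4 without fresh replicate 2 (adjusted p = 0.0546) or cultured replicate 2 (0.0635), and in VmSC5 without fresh replicate 1 (0.0776) or cultured replicate 3 (0.0601).

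S1pr1 fell in VmSC4 from 19.3, 14.6 and 13.9 CPM to 1.09, 1.53 and 0.466 CPM (log2 fold change -3.35 ± 0.49, edgeR adjusted p = 1.4e-06). In VmSC5, where fresh cells were already low, cultured libraries at 1.29, 3.01 and 1.07 CPM overlapped the fresh ones. The fitted change was near 0, and its sign was opposite to that of the mean CPM, which was 2.32 fresh and 1.79 cultured (0.09 ± 0.52, interval -0.93 to 1.11, adjusted p = 0.891). The difference between these responses, VmSC5 minus VmSC4, was 3.44 ± 0.78 (adjusted p = 0.0159), and 2.87% of all genes had such a difference called (379 of 13221). It rests on 7 and 12 cultured counts and was lost without cultured VmSC5 replicate 2 (2.80, adjusted p = 0.15). Since S1pr1 entered through fresh libraries, where the populations already differed, this contrast is likewise given as a value and not as support. The responses of Klf2, Bach2, Satb1 and Foxo1 did not pass that test, with adjusted p from 0.547 to 0.906. Endothelial markers summed to 25.5 to 36.3 CPM in cultured VmSC4 and 29.2 to 34.0 CPM in cultured VmSC5, with the defining markers Cdh5 and Tie1 at 0 in both.

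**Figure D4:**
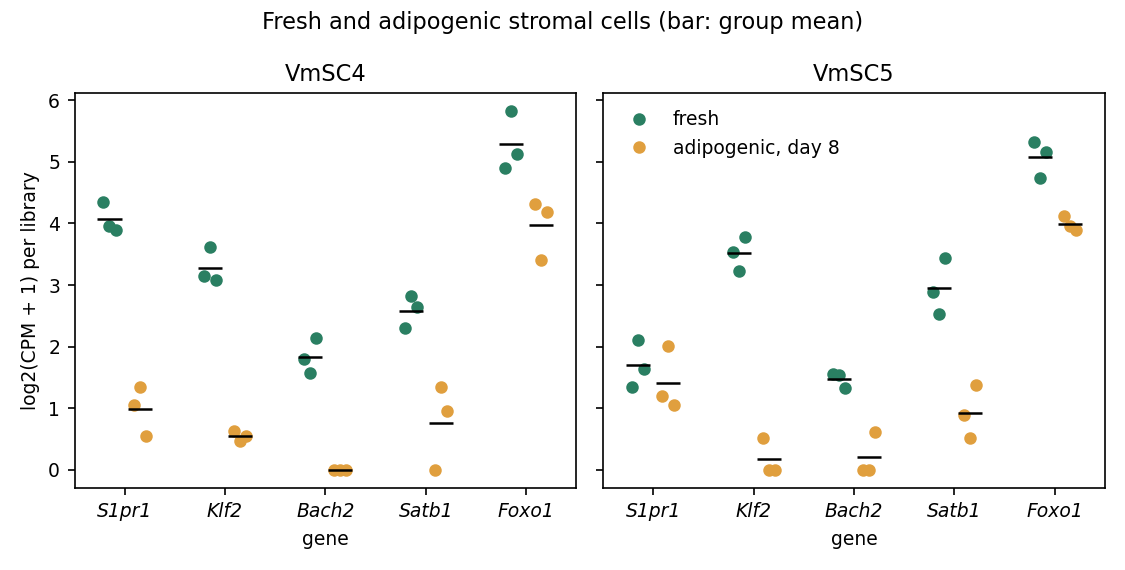
Log2(CPM + 1) of 5 genes in each library of fresh and 8-day adipogenic VmSC4 (left) and VmSC5 (right), with a bar at each group mean. Cultured libraries lie below fresh ones for Klf2, Bach2, Satb1 and Foxo1 in both populations, while S1pr1 falls in VmSC4 and overlaps in VmSC5. Klf2, Bach2 and Satb1 had 0 to 4 counts in each cultured library and entered the test through the fresh libraries.

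Over all genes tested, 38.5% were called lower with culture in VmSC4 and 37.6% in VmSC5. Of the resting and recirculation list in VmSC4, 11 of 16 were tested, 8 fell and 1 rose, with a median of -1.44. In VmSC5, 9 of 11 fell and none rose, with a median of -1.65. Genes of every list passed the same count filter, which the fresh libraries alone can satisfy. The list counts in culture are therefore also given as values and not as support. Of 6 tested effector genes, 2 rose and 3 fell in each population (medians -1.17 and -1.09). Stromal markers summed to 37639 to 43493 CPM in fresh and 971 to 1318 CPM in cultured cells, and adipocyte markers to 0.805 to 4.57 and 5524 to 6152 CPM, and their part was not tested. The smallest adjusted p in both populations were those of the survival gene Bcl2 (-4.05 ± 0.31 and -3.86 ± 0.33), the Klf2 relative Klf3 (-1.87 ± 0.20 and -2.05 ± 0.20), Ets1 (-1.959 ± 0.25 and -2.18 ± 0.26) and the interleukin-6 receptor gene Il6ra (-1.87 ± 0.28 and -2.73 ± 0.27). Of the ligand, partner and turnover list, 16 genes were tested, and 11 fell and 3 rose in VmSC4 while 12 fell and 1 rose in VmSC5 (medians -1.22 and -1.04). Of these, S1pr2 (-3.44 ± 0.16 and -3.31 ± 0.16) and S1pr3 (-2.77 ± 0.16 and -1.95 ± 0.15), 2 further S1P receptors, the S1P phosphatase Plpp3 (-2.61 ± 0.13 and -2.67 ± 0.13) and Jak1 (-1.53 ± 0.13 and -1.70 ± 0.13) fell in both. S1pr3 was the 1 gene of that list whose responses differed, VmSC5 minus VmSC4, by 0.82 ± 0.21 (edgeR adjusted p = 0.0316).

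After transfer, VmSC4-derived VmSC5 and VmSC4-derived VmSC4 did not differ by a call in any of the 5 genes tested, and 1.77% of all genes were called (247 of 13947, against 39 to 166 with 1 library left out and 893 of 12106 when the 2 groups were fitted alone). At an unadjusted p under 0.05 none of the 5 passed either, since their p ran from 0.229 to 0.911. S1pr1 was at 5.55, 8.67 and 5.86 CPM in the derived VmSC5 and 3.53, 5.08 and 7.73 CPM in the derived VmSC4 (log2 fold change 0.34 ± 0.40, interval -0.44 to 1.12). The groups overlapped. Klf2 was at 18.5, 17.3 and 16.2 against 15.1, 16.3 and 13.9 CPM (0.29 ± 0.23), and Bach2 at 9.77, 8.26 and 5.25 against 5.801, 8.64 and 4.36 CPM (0.44 ± 0.38). Satb1 (0.20 ± 0.38) and Foxo1 (-0.03 ± 0.23) also overlapped. No gene was called among 11 tested resting and recirculation genes, 6 effector genes and 18 ligand, partner and turnover genes. The 2 libraries of VmSC5-derived VmSC5 had the most Klf2 of all stromal groups, 36.8 and 31.8 CPM.

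In floating cells, depletion of Treg was accompanied by less S1pr1. DTR- libraries were at 51.2 and 53.9 CPM (304 and 402 counts) and DTR+ libraries at 7.21 and 1.09 CPM (54 and 8 counts). Both DTR+ libraries were well below both DTR- ones. The log2 fold change was -3.42 ± 0.74 (edgeR adjusted p = 0.0158), and 2.43% of all genes were called (287 of 11803). With 1 library left out, that number was 6 or 26 without DTR- replicate 3 or 2, and 5370 or 918 without DTR+ replicate 2 or 3. The call was lost when DTR- replicate 2 (adjusted p = 0.308) or 3 (0.431) was left out, although the fold change stayed at -3.40 and -3.46. Fitted values are centred 0.36 above plain CPM ratios here.

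Endothelial markers moved with S1pr1 in these cells. The 6 markers summed to 464 and 552 CPM in DTR- libraries and to 19.9 and 46.9 CPM in DTR+ libraries, with counts for all 6 in both groups. Pecam1 was at 107 and 129 CPM in DTR- and at 11.7 and 1.09 CPM in DTR+, and Cdh5 at 90.4 and 132 against 5.61 and 1.64 CPM. Macrophage markers summed to 102 to 143 and 17.4 to 42.6 CPM, and stromal markers to 582 to 1623 and 192 to 227 CPM. The part of these cells in the S1pr1 difference was not tested.

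Klf2 (0.21 ± 0.73), Satb1 (1.04 ± 1.00) and Foxo1 (0.07 ± 0.61) were not called in floating cells (edgeR adjusted p from 0.608 to 0.964), and their libraries overlapped. Foxo1, at 30.5 and 49.5 CPM in DTR- and 31.5 and 29.2 CPM in DTR+, and Klf2, at 3.88 and 7.24 against 5.47 and 4.09 CPM, were lower in DTR+ by mean CPM, the opposite of their fitted signs. Ccr7 had 10 counts in DTR- and 0 in DTR+ (3.69-fold lower against a floor of 3 counts, without an interval). Il7r had 9 and 3 (3.32-fold, 95% counting interval 0.829 to 19.1). Dendritic cell markers summed to 64.4 to 96.2 CPM in DTR- and 3.54 to 12.8 CPM in DTR+, with Flt3 at 0 in both groups and Xcr1 at 0 in DTR+. The same markers summed to 76.0 to 102 CPM in sorted fresh VmSC4, so this sum does not by itself show dendritic cells. B cell markers summed to 2.01 to 3.20 and 0 to 0.934 CPM. T cell markers went the other way, with sums of 0.506 to 1.07 CPM in DTR- and 2.27 to 2.45 CPM in DTR+. Foxp3 had 2 counts in DTR- and 0 in DTR+. The part of any of these cell types in the Ccr7 and Il7r counts was not tested. Of the wider lists, Ets1 (-3.44 ± 0.79, adjusted p = 0.0232) was the only 1 of 11 tested resting genes called, and S1pr3 (-4.65 ± 1.203, adjusted p = 0.0434) the only 1 of 17 tested ligand, partner and turnover genes, both lower in DTR+.

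In VmSC5 cultured with or without Treg, only S1pr1 and Foxo1 had enough counts to be tested, and neither was called while 43.4% of all genes were (5357 of 12356). S1pr1 was at 3.30, 3.99 and 1.94 CPM without Treg and at 1.26, 1.67 and 2.37 CPM with Treg. The groups overlapped through replicate 3 of each. Its log2 fold change was -0.83 ± 0.37 (interval -1.55 to -0.11; edgeR adjusted p = 0.0673), and S1pr1 was called when without-Treg replicate 3 (-1.05, adjusted p = 0.0306) or with-Treg replicate 3 (-1.09, adjusted p = 0.033) was left out. Endothelial markers summed to 76.4 to 96.9 CPM without and 33.5 to 65.6 CPM with Treg. Most of that sum was Egfl7, at 53.6 to 67.4 CPM without and 27.2 to 37.0 CPM with Treg. The libraries of Pecam1, Cdh5, Kdr, Tie1 and Cldn5 overlapped, so the sum does not by itself show fewer endothelial cells. The part of these markers was not tested. Foxo1 was nearly level, at 34.4, 30.8 and 26.2 CPM without and 31.5, 29.6 and 30.4 CPM with Treg (0.0047 ± 0.11, interval -0.22 to 0.23).

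Genes of the further lists were called in this culture, where 22.4% of all genes were called higher with Treg. Of 11 tested resting and recirculation genes, 9 rose with Treg and none fell (median 0.55 against -0.0030 over all genes). Of 6 tested effector genes, 1 rose and 3 fell (median -0.19). Stromal markers summed to 3834 to 4479 CPM without and 10457 to 12217 CPM with Treg, and adipocyte markers to 3632 to 3916 and 1639 to 1830 CPM, and their part was not tested. The smallest adjusted p were those of Ets1 (1.55 ± 0.12), the growth factor binding protein gene Igfbp4 (0.50 ± 0.05), Rasgrp2 (1.17 ± 0.23), an activator of the GTPase Rap1, and the forkhead factor Foxp1 (0.65 ± 0.13). Of 16 tested ligand, partner and turnover genes, 8 rose and 2 fell (median 0.17). S1pr3 rose from 37.7 ± 2.26 to 304 ± 35.1 CPM (3.01 ± 0.08, edgeR adjusted p = 8.54e-24), Sphk1 from 23.5 ± 2.10 to 58.0 ± 2.14 CPM (1.31 ± 0.10), S1pr2 by 0.97 ± 0.13 and Jak1 by 0.38 ± 0.06 on the log2 scale.

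With OSM, S1pr1 rose and Foxo1 fell in VmSC5. S1pr1 was at 2.32, 6.25 and 7.67 CPM with PBS (3, 13 and 9 counts) and at 55.4, 51.3 and 69.6 CPM with OSM (69, 55 and 106 counts). Every OSM library was far above every PBS library. It passed the count filter through the OSM libraries, and without that filter its log2 fold change was 3.46. As fitted with the filter, the change was 3.52 ± 0.28 (edgeR adjusted p = 3.26e-15), in a comparison that called 45.8% of all genes (4500 of 9825). That call is given as a value and not as support, since the filter was passed through the group where S1pr1 is high. Foxo1 was at 32.4, 31.3 and 22.2 CPM with PBS and 10.4, 15.9 and 11.8 CPM with OSM, again without overlap (-1.10 ± 0.28, adjusted p = 0.000835). Fitted values are centred 0.10 above plain CPM ratios.

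Markers of several cell types moved with S1pr1 and Foxo1 here. The 6 endothelial markers summed to 71.1 to 76.7 CPM with PBS and 187 to 221 CPM with OSM, Pecam1 was at 11.6 to 14.0 and 50.4 to 74.2 CPM, and Cdh5 at 2.56 to 7.73 and 19.3 to 27.0 CPM. Adipocyte markers summed to 822 to 963 CPM with PBS and 15.8 to 22.4 CPM with OSM, and stromal markers to 10328 to 10765 and 47071 to 57222 CPM. Of the ILC2 markers, whose sum was 0 to 0.481 CPM with PBS and 32.9 to 44.9 CPM with OSM, Il13 was at 0 in both groups, and Kit alone had counts with OSM. The part of these cells or states in the S1pr1 and Foxo1 differences was not tested. Satb1 had 14 counts with PBS and 15 with OSM, Klf2 had 3 and 1, and Bach2 1 and 2, too few for the test. Tcf7 (5 counts with OSM) and Ccr7 (6 counts) had 0 counts with PBS. Against a floor of 3 counts they were 1.97-fold and 2.37-fold higher, which leaves out the counting error of the OSM counts. Il7r had 2 counts with OSM and 0 with PBS.

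Over all genes tested, 22.8% were called higher with OSM. Of 7 tested resting and recirculation genes, 6 rose with OSM and none fell (median 1.30 against 0.0036 over all genes), led by Igfbp4 (1.55 ± 0.08), the inhibitor of DNA binding Id3 (1.33 ± 0.10), Ets1 (1.30 ± 0.16) and Actn1 (2.20 ± 0.34), which encodes an actin crosslinker. Of 14 tested ligand, partner and turnover genes, 7 rose and 3 fell (median 0.59), and of 5 tested effector genes 3 rose and 1 fell (median 1.05). Sphk1 rose from 45.2 ± 2.36 to 362 ± 58.4 CPM (3.11 ± 0.13, edgeR adjusted p = 1.12e-25) and S1pr3 from 370 ± 31.1 to 1023 ± 56.9 CPM (1.57 ± 0.08, adjusted p = 1.56e-21). The S1P lyase gene Sgpl1 fell by 1.099 ± 0.11 and Plpp3 rose by 0.66 ± 0.08 on the log2 scale.

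The responses to OSM and to Treg were also compared with each other, each against its own control, in a test added after both were seen. S1pr1 differed by 4.40 ± 0.48 on the log2 scale, OSM response minus Treg response (edgeR adjusted p = 3.7e-10), and Foxo1 by -1.08 ± 0.28 (adjusted p = 0.00212). Satb1, the third gene tested, did not pass (0.66 ± 0.88, adjusted p = 0.618). Such a difference was called for 32.5% of all genes (3941 of 12112). The OSM and PBS cultures were shallower and were a separate experiment, which cannot be told apart from the agents.

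**Figure D5:**
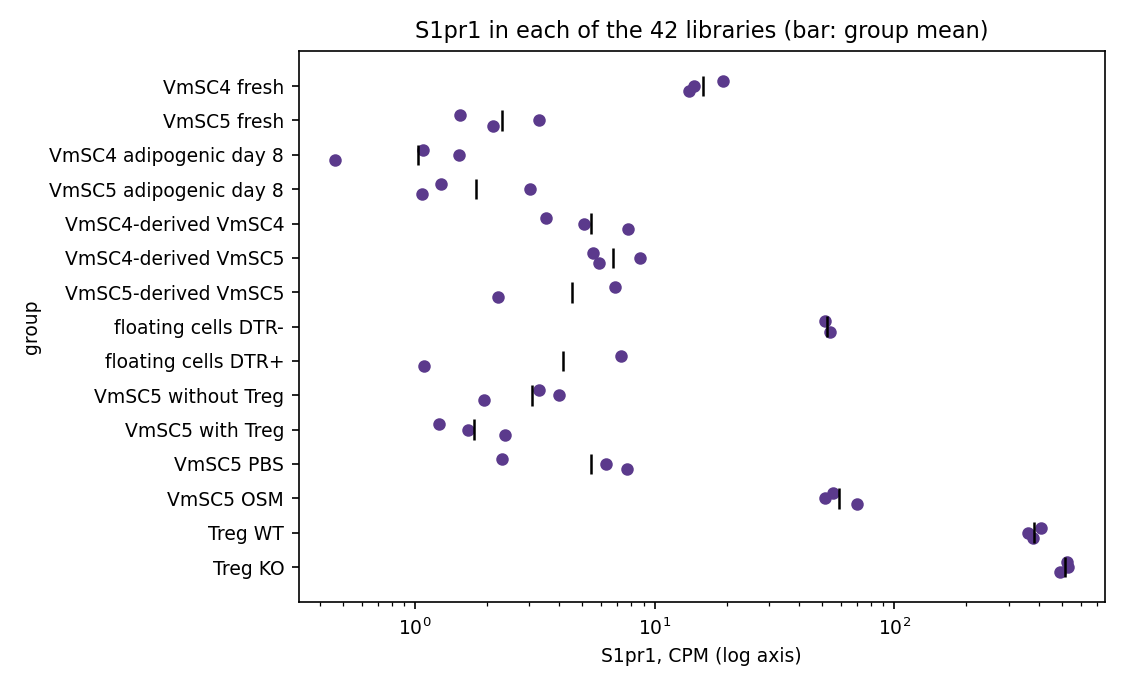
S1pr1 in CPM (log axis) in each of the 42 libraries by group, with a bar at each group mean. The 3 OSM libraries (51.3 to 69.6 CPM) and 2 DTR- floating libraries (51.2 and 53.9 CPM) lie between Treg (363 to 531 CPM) and the other stromal groups, where fresh VmSC4 (13.9 to 19.3 CPM) is the highest.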

How the data were processed

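Gene counts of 42 libraries were used as deposited by the authors, in a single table of 55011 genes. Per the submitters' processing notes, STAR 2.7.3a and featureCounts were used with the mouse genome mm10; the annotation release, strand setting and treatment of multi-mapped reads are not given in the sources used here. Per the labels' protocols, the ultra-low-input method of the Immunological Genome Project was used, with 1000 sorted cells per fresh library, directly lysed culture wells or 2 ng of floating cell RNA.

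Counts were tested with the quasi-likelihood F test of edgeR 4.0.16 (R 4.3.3; TMM scaling, low-count filter at 10 counts, two-sided), with Benjamini-Hochberg adjustment over all genes tested. A gene was called at an adjusted p under 0.05. The SE is the log2 fold change divided by the square root of F, and 95% intervals take a normal quantile of that SE. A group with 0 counts was given a floor of 3 counts over the group, and ratios to that floor leave out the counting error of the other group. Counting intervals cover counting error only.

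The 8 genes and the 3 further lists were chosen with earlier results of these data known. All 8 genes are named where tested. Of each list, the 4 genes with the highest CPM in Treg cells are named, and in other comparisons up to 4 called genes with the smallest adjusted p. Each result was recomputed with DESeq2 1.42.0, with RLE factors, without the count filter, with the replicate number as a block, and without each library in turn. The steps were tested on simulated data. Some items are not reported here.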

Additional observations from a re-analysis of the deposited data

Results flagged for a closer look

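The S1pr1 response to adipogenic culture passed the test of a difference between the stromal populations, a call that was lost without cultured VmSC5 replicate 2 (2.80, edgeR adjusted p = 0.15). The contrast, VmSC5 minus VmSC4, was 3.44 on the log2 scale (edgeR adjusted p = 0.0159), with 566 fresh counts and 7 cultured counts in VmSC4 against 64 and 12 in VmSC5. The fresh populations already differed in S1pr1 (log2 fold change -2.68), and the gene entered the test through fresh libraries. The contrast is therefore given as a value and not as support for a differing response.

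S1pr1 and Foxo1 each passed the test of a difference between the OSM and the Treg comparison in cultured VmSC5. OSM response minus Treg response was 4.40 for S1pr1 (edgeR adjusted p = 3.7e-10) and -1.08 for Foxo1 (adjusted p = 0.00212). Both were called under every alternative run, each library left out included. In the Treg comparison by itself neither gene was called (edgeR adjusted p = 0.0673 for S1pr1 and 0.98 for Foxo1). The OSM and PBS cultures were shallower and were a separate experiment. No alternative run removes that, so experiment and agent cannot be told apart.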

How the results depend on the processing

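The number of the 8 genes called was within 1.5 times the reported number under RLE scaling, DESeq2, no low-count filter and the replicate block in all comparisons. Leaving out 1 library at a time moved it from 0 to between 0 and 2 for KO against WT Treg, from 5 to between 3 and 5 for VmSC4 culture, from 4 to between 2 and 3 for VmSC5 culture, from 1 to between 0 and 1 for the difference of these responses and for floating cells, and from 0 to between 0 and 1 for culture with Treg. In KO against WT Treg, the number of all genes called was 6 as reported, 50 by DESeq2, 199 without the filter and 0 to 586 with a library left out. In floating cells it was 287 as reported, 509 by DESeq2, 111 with the replicate block and 6 to 5370 with a library left out. Between the VmSC4-derived cells it was 247, 478 by DESeq2, 450 without the filter, 893 with only those groups fitted and 39 to 166 with a library left out. For the difference of culture responses it was 379, 620 by DESeq2, 644 without the filter and 155 to 661 with a library left out.

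Signs changed for some values that were not called. Leaving out a library gave -0.29 to 0.30 for Ccr7 and -0.23 to 0.26 for Bach2 in KO against WT Treg, and -0.34 to 0.15 for Foxo1 in fresh cells. For S1pr1 in VmSC5 culture it gave -0.58 to 0.44, and -0.044 was the value without the filter. For the difference of culture responses, Satb1 ran from -1.05 to 0.29 and Foxo1 from -0.17 to 0.33. Between the VmSC4-derived cells, Satb1 ran from -0.18 to 0.39 and Foxo1 from -0.12 to 0.020. In floating cells, Klf2 ran from -0.11 to 0.65 and Foxo1 from -0.25 to 0.38, and with or without Treg, Foxo1 ran from -0.093 to 0.093. The cause was not tested.

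No comparison had all its same-numbered pairs correlated above 0.1. This check cannot exclude pairing, since fresh VmSC5 and WT Treg, from separate experiments, also had best matches by number (0.0161 to 0.029). With the replicate block, 0 of the 8 genes were called in KO against WT Treg and no gene's call changed elsewhere. In floating cells both pairs correlated at -0.397, a single value because each group had 2 libraries. A crossed pairing, added after the data were seen, called 1055 genes in place of 287. Leaving 1 library in a floating group assumes that it varies like the other group. Depth limits Bach2 and Klf2 in the cultures, where libraries held 0 to 8 counts.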
